A study of Arabidopsis thaliana with 12 samples.

Results

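The difference between scion and rootstock that flower buds and leaves have in common was measured in homografted Arabidopsis thaliana plants, on all 12 arrays of the study. It was taken as the mean scion minus rootstock difference over both organs, from a fit with the organ (flower bud or leaf) as a further factor, and was computed for all 22746 probe sets of the ATH1 array other than its controls. A probe set is a group of short probes read as 1 transcript. The 12 arrays fall into 4 groups of 3, with flower buds of the scion and of the rootstock and leaves of the scion and of the rootstock, so that 6 scion arrays are set against 6 rootstock arrays. All plants were of the wild-type ecotype Col-0, grown in long days with 16 h of light. The primary inflorescence stem of plants aged 4 to 5 weeks was cut and wedge-grafted back onto the same plant, the part above the junction being the scion and the part below it the rootstock. Newly emerged, unopened flower buds and leaves of the side branches were harvested from both parts at the same time, 10 to 20 days after the graft, from 3 plants selected for the best scion growth. No ungrafted plants were measured here, so position above or below the cut and the graft itself cannot be told apart.

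In a grafted stem the scion receives its water and minerals across the healed junction, while the rootstock keeps its original connection to the root. Abscisic acid (ABA) is the hormone that rises when plant tissue is short of water. It acts through PYL receptors, protein phosphatases of type 2C and SnRK2 kinases, and its target genes include those of late embryogenesis abundant (LEA) proteins, which protect cell components during drying. Class I homeodomain-leucine zipper (HD-Zip) factors are transcription factors, of which HB7 and HB12 are induced by water deficit and ABA, whereas HB21, HB40 and HB53 act in axillary buds, where they favour ABA accumulation and restrain outgrowth.

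Values are log2 and were deposited with each probe set centred on its median over the 12 arrays, so a value tells how an array stands to the other arrays and not how strongly a gene is expressed. The organs accounted for the largest part of the variance, with 73.03% on the first principal component. There scion and rootstock leaf replicate 3 stood at 28.1 and 58.6, against 86.1 to 118 in the other leaves. Scion flower bud replicate 1 stood at -47.5, against -97.3 to -78.8 in the other flower buds. These arrays were thus nearer to the other organ than the rest of their own. Transcripts typical of the other organ differed in level between the arrays. In scion leaves the median of 6 floral organ identity genes was -1.56, -2.07 and -0.85 (replicates 1 to 3), against -4.05, -4.34 and -4.23 in rootstock leaves, so every scion leaf array lay above every rootstock leaf array. Among 17 tapetum and pollen wall genes the median was -1.81, -3.36 and -1.34 in scion leaves, against -3.26, -3.06 and -2.96 in rootstock leaves. Of these markers, 5 of the 6 and 14 of the 17 are named through tables of the study. The study chose its genes on these samples, so these medians are not independent evidence. The 1 platform-named floral gene overlapped in leaves, with -0.12, -0.25 and 0.15 in scion and -0.40, -0.40 and 0.0017 in rootstock. For the 3 platform-named tapetum genes the leaf medians were -2.85, -2.95 and -2.22 in scion and -3.26, -3.06 and -2.96 in rootstock. Whether these values stem from floral tissue in the leaf samples or from expression in the leaf itself was not tested. The paper proposes that higher transcripts of the floral SEPALLATA genes in scion leaves could reflect steps of the scion to regulate flowering. For 11 nuclear photosynthesis genes the flower bud medians ran from -0.50 to -0.30 in the scion, with replicate 1 the highest, against -0.60 to -0.41 in the rootstock. Of 6 reference genes none was called, and their median difference was -0.097. The array number limits the precision of every value below, and in bulk tissue fewer cells of a type and less RNA per cell cannot be told apart.

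Over both organs the scion had 7 probe sets that rose and 1 that fell, which is 0.0308% and 0.0044% of all tested (limma, with a fold of at least 2 and a p, adjusted after Benjamini-Hochberg, no higher than 0.05). The genes that rose were LEA7, the HD-Zip gene HB21, the MATH-domain gene ZW9, the volatile ester synthase gene CHAT, the glucosinolate oxygenase gene FMO GS-OX2, at2g47780 of the rubber elongation factor family and the bHLH gene ALC. The gene that fell was at5g55450, of the protease inhibitor and lipid transfer family. With the adjusted p alone, 14 probe sets passed, 8 higher (0.0352%) and 6 lower (0.0264%), and 2264 had an unadjusted p of at most 0.05. The calls depended on single arrays. They numbered 17 higher and 1 lower without scion flower bud replicate 2, 5 and 0 without scion flower bud replicate 1, and 4 and 0 without scion leaf replicate 3. A single call, higher, was made without scion flower bud replicate 3 or rootstock flower bud replicate 3, and 0 were made without any 1 of rootstock flower bud replicates 1 and 2, scion leaf replicates 1 and 2 and rootstock leaf replicates 1, 2 and 3 (unadjusted p of at most 0.05 in 1566 to 3231 probe sets over the 12 fits). Without 3 scion arrays together (flower bud replicate 1, leaf replicates 1 and 3), a set chosen with earlier results known, 20 rose and 1 fell, and 3 of the 7 increases, LEA7, HB21 and ZW9, were among them, whereas at5g55450 was not (-1.78, adjusted p = 0.153).

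**Figure D1:**
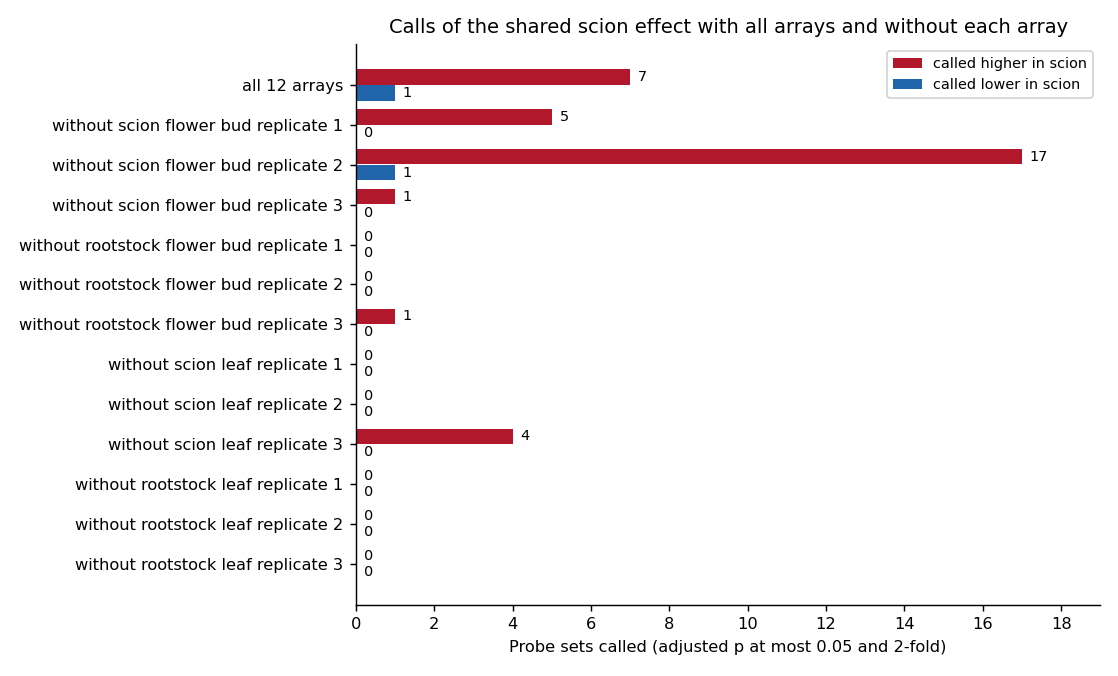
Number of probe sets called higher (upper bar of each pair) or lower (lower bar) in scion with all 12 arrays and in each of the 12 fits that left out 1 array; the x axis is a count. The increases run from 0 to 17 and the decreases from 0 to 1, against 7 and 1 with all arrays.

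LEA7 (at1g52690), a late embryogenesis abundant protein gene, was up-regulated 10.34-fold in scion. Its values were 4.44, 2.47 and 3.11 in scion flower buds, against -0.29, 0.057 and -1.05 in rootstock flower buds. In scion leaves they were 1.01, 2.06 and -0.057, against -1.85, -2.03 and -2.03 in rootstock leaves. Scion and rootstock did not overlap in either organ, and scion leaf replicate 3 stood closest to the rootstock. The mean log2 difference was 3.37 ± 0.40 (SE, adjusted p = 0.0226), of which 3.76 was measured in flower buds and 2.98 in leaves. It was called in 3 of the 12 fits without 1 array (adjusted p 0.0108 to 0.115), while the difference itself stayed between 3.08 and 3.65. Without the 3 scion arrays named above it was 3.53 (adjusted p = 0.00468). LEA7 carries its name here through the tables of the study, which chose its genes on these samples, and the same holds for HB21 and FMO GS-OX2.

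HB21 (at2g18550) rose 9.046-fold. The values were 4.69, 2.26 and 3.25 in scion flower buds, against -0.36, -0.37 and -1.12 in rootstock flower buds, and 1.18, 1.6 and 0.36 in scion leaves, against -1.11, -1.45 and -1.31 in rootstock leaves. All 6 scion arrays were thus above all 6 rootstock arrays, whichever the organ. The log2 difference was 3.18 ± 0.43 (SE, adjusted p = 0.0435), with 4.02 in flower buds and 2.34 in leaves. This difference between the organs did not pass the test (limma, adjusted p = 0.634). The call was made in 3 of the 12 fits without 1 array (adjusted p 0.0202 to 0.152), and without the 3 scion arrays the difference was 3.19 (adjusted p = 0.00468).

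**Figure D2:**
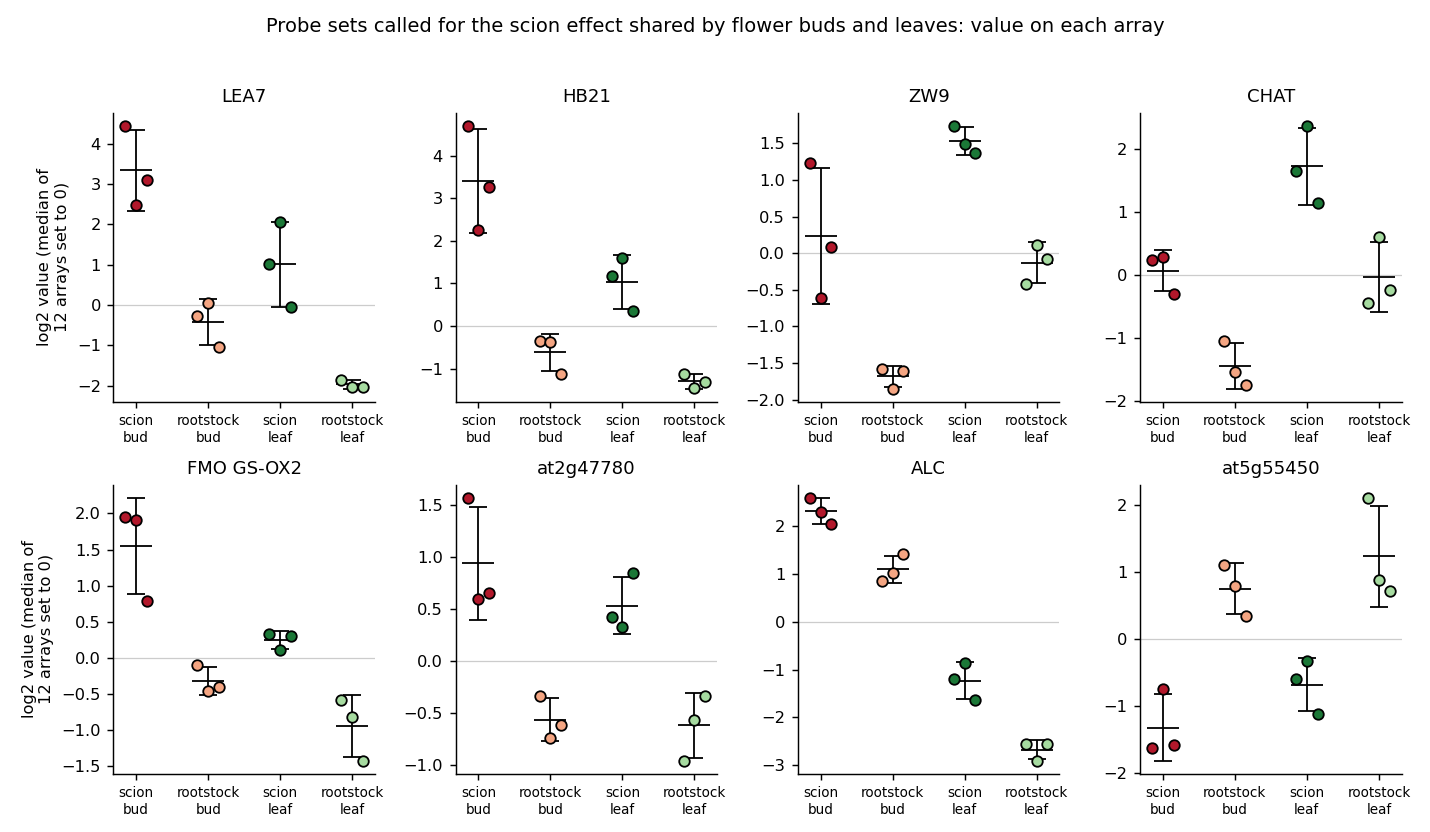
Values of the 8 called probe sets on each array (points, y axis, log2, median of the 12 arrays set to 0), with the mean and SD of the 3 arrays of a group (lines and bars); scion stands left of rootstock in each organ. In every panel the scion and rootstock points of an organ are apart, and LEA7, HB21 and ALC are also higher in flower buds than in leaves.

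ALC (at5g67110, ALCATRAZ), which is needed for the separation layer that opens the fruit, rose 2.508-fold. Its values were 2.58, 2.3 and 2.05 in scion flower buds, against 0.86, 1.01 and 1.41 in rootstock flower buds. It was lower in leaves throughout, with -1.21, -0.86 and -1.64 in the scion, against -2.55, -2.90 and -2.56 in the rootstock. The log2 difference was 1.33 ± 0.16 (SE, adjusted p = 0.0226), and 5 of the 12 fits without 1 array called it (adjusted p 0.0217 to 0.115). As ALC is a transcript of flower buds in these data, with a flower bud minus leaf difference of 3.54 in the scion and 3.76 in the rootstock, the higher floral medians of scion leaves than of rootstock leaves stand beside its leaf value. Among the scion leaves ALC ran in the opposite order to the floral organ identity median, -1.21, -0.86 and -1.64 against -1.56, -2.07 and -0.85 in replicates 1 to 3. The part of floral transcripts in the ALC leaf difference was not tested. Without the 3 scion arrays the difference was 1.36 (adjusted p = 0.0522). PTL (at5g03680, PETAL LOSS), a trihelix factor that limits growth between the sepals, passed the adjusted test at under 2-fold, with 0.86 ± 0.10 (SE, adjusted p = 0.0226). Its group means were 0.92 ± 0.17 in scion and 0.12 ± 0.15 in rootstock flower buds, and -0.17 ± 0.21 in scion and -1.09 ± 0.05 in rootstock leaves (SD, n = 3). PTL stands outside the rule for named genes and was chosen after its values were seen. It too was higher in flower buds than in leaves, and the part of floral transcripts in its leaf difference was not tested.

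The remaining increases were of more moderate size. ZW9 (at1g58270) had 1.23, -0.61 and 0.079 in scion flower buds, against -1.58, -1.85 and -1.61 in rootstock flower buds, and 1.74, 1.49 and 1.36 in scion leaves, against -0.43, 0.12 and -0.079 in rootstock leaves. The log2 difference was 1.79 ± 0.25 (SE, adjusted p = 0.0480). ZW9 was more abundant in leaves than in flower buds, and the highest of the flower bud values was that of scion replicate 1, which also had the highest nuclear photosynthesis median. The part of this in the result was not tested. Without the 3 scion arrays the difference was 1.49 (adjusted p = 0.0336). CHAT (at3g03480), which makes the leaf volatile hexenyl acetate, had 0.24, 0.28 and -0.31 in scion flower buds, against -1.05, -1.54 and -1.75 in rootstock flower buds, and 1.66, 2.37 and 1.15 in scion leaves, against -0.45, 0.61 and -0.24 in rootstock leaves. Here all 3 scion flower bud arrays stood apart from the rootstock, and the log2 difference was 1.64 ± 0.24 (SE, adjusted p = 0.0480). No fit without 1 array called CHAT (adjusted p 0.0520 to 0.152), although its difference stayed between 1.48 and 1.76.

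FMO GS-OX2 (at1g62540), a flavin monooxygenase that oxidises the side chain of aliphatic glucosinolates, had 1.95, 1.91 and 0.79 in scion flower buds, against -0.10, -0.46 and -0.40 in rootstock flower buds. In leaves it had 0.34, 0.10 and 0.30 in the scion, against -0.59, -0.82 and -1.42 in the rootstock. The log2 difference was 1.53 ± 0.23 (SE, adjusted p = 0.0481), and no fit without 1 array called it (adjusted p 0.0558 to 0.153). The values of at2g47780 were 1.57, 0.60 and 0.66 in scion flower buds, against -0.34, -0.74 and -0.61 in rootstock flower buds, and 0.43, 0.33 and 0.84 in scion leaves, against -0.96, -0.56 and -0.33 in rootstock leaves. This gene was equally abundant in both organs of the rootstock, with a flower bud minus leaf difference of 0.055, and rose by 1.33 ± 0.19 (SE, adjusted p = 0.0480), a call made in 2 of the 12 fits without 1 array. ZW9 was likewise called in 2 of the 12 (adjusted p 0.0202 to 0.152 for ZW9 and 0.0365 to 0.152 for at2g47780). Centring each array on its own median left 5 increases and took the adjusted p of CHAT to 0.0538 and of FMO GS-OX2 to 0.0598.

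The decrease of at5g55450 was 3.98-fold. It had -1.63, -0.76 and -1.59 in scion flower buds, against 1.1, 0.78 and 0.34 in rootstock flower buds, and -0.61, -0.34 and -1.12 in scion leaves, against 2.1, 0.88 and 0.71 in rootstock leaves. All scion arrays were below all rootstock arrays over both organs, with a log2 difference of -1.99 ± 0.26 (SE, adjusted p = 0.0389), close to equal in flower buds (-2.07) and leaves (-1.92). It was called in 1 of the 12 fits without 1 array (adjusted p 0.0265 to 0.152). A further 5 probe sets passed the adjusted test as lower at under 2-fold. They were at3g15640, a subunit of mitochondrial cytochrome c oxidase (-0.87 ± 0.11, SE, adjusted p = 0.0279), NRPB9B (at4g16265), a small subunit of RNA polymerase II (-0.86 ± 0.13, SE, adjusted p = 0.0480), at2g32380 (-0.87), at5g19250 (-0.81) and a probe set without a gene name here (-0.47). For at3g15640 the values were -0.35, 0.028 and -0.10 in scion flower buds, against 0.64, 0.73 and 0.51 in rootstock flower buds, and in leaves -1.04, -0.66 and -0.79 in the scion, against 0.33, 0.11 and -0.028 in the rootstock.

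Without regard to the test, the 3 scion and the 3 rootstock arrays were separated in the same direction within both organs for 190 probe sets higher in scion (0.835%) and 203 lower (0.892%). These counts are nearly equal, but the separated probe sets with a mean difference of at least 2-fold were 58 higher and 10 lower. Among all probe sets a mean difference of at least 2-fold was found for 274 higher and 40 lower, and the median over all was -0.023, with 44.6% of the probe sets above 0. Of the 58 higher, 25 have a single gene by the platform annotation and 24 through tables of the study, and of the 10 lower 6 and 4. All 8 calls lie among these 68.

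**Figure D3:**
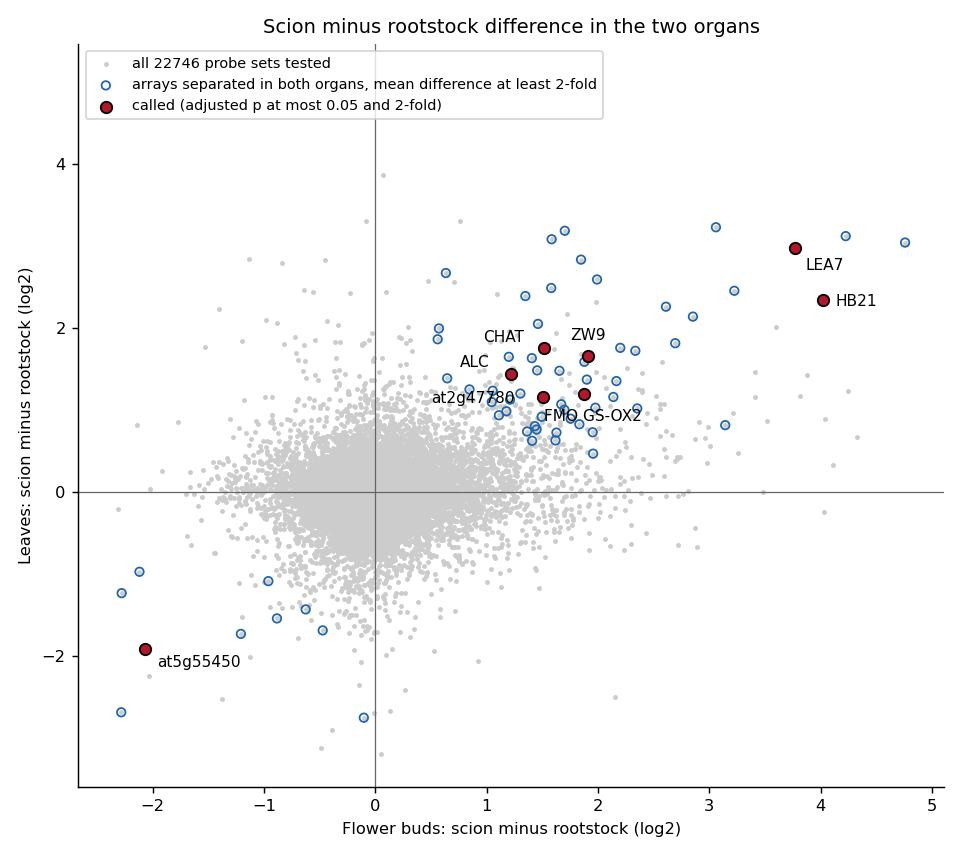
Scion minus rootstock difference (log2) in flower buds (x axis) and in leaves (y axis) for the 22746 probe sets tested (grey), the 68 separated in both organs with a mean difference of at least 2-fold (circles) and the 8 called among them (filled). Of these circles 58 lie in the upper right and 10 in the lower left, and LEA7 and HB21 lie far along both axes.

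The HD-Zip genes of class I that could be named stood higher in scion. The list holds 17 genes, and those without a single-gene probe set here cannot be judged. All 5 measured members were higher, HB21 rose and 4 did not pass the test, and their median difference was 1.98, against -0.023 over all probe sets tested. HB53 (at5g66700) differed by 1.63 ± 0.29 (SE, adjusted p = 0.0925), with 2.17, 0.18 and 1.12 in scion flower buds, against -0.71, -0.46 and -1.06 in rootstock flower buds, and 0.58, 0.98 and 0.84 in scion leaves, against -0.18, -1.03 and -0.51 in rootstock leaves. HB40 (at4g36740) differed by 1.98 ± 0.46 (SE, adjusted p = 0.182), and its difference was 3.14 in flower buds and 0.81 in leaves. HB21, HB40 and HB53 were thus each separated from the rootstock within both organs, as were 0.835% of all probe sets in the same direction. HB7 and HB12, which respond to ABA, differed by 2.43 (adjusted p = 0.209) and 1.57 (adjusted p = 0.361), and both overlapped in leaves. In rootstock leaf replicates 1 and 2, HB12 had 0.75 and 0.69, close to the 1.06 and 0.98 of the same scion replicates. All 5 are named through the tables of the study, so their shared direction is not independent evidence.

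Genes that respond to ABA and drought showed the same direction, but the lists overlap. HB7 and HB12 also stand in the HD-Zip list, and LTP4 in that of lipid transfer proteins. Of 22 measured members 21 were higher in scion, LEA7 rose, none fell and 21 did not pass, with a median of 1.24 over both organs, 2.09 in flower buds and 0.56 in leaves. Of these, 10 are named by the platform annotation, of which 9 were higher and 3 were separated within both organs, with a median of 1.24. Over all probe sets 44.6% were higher and 0.835% were separated as higher. The other 12 take their names from tables of the study and had been chosen by it on these samples. The histone H1 variant gene HIS1-3 (at2g18050), which is induced by drought and was chosen after its values were seen, had the highest difference of all probe sets, 3.90 ± 0.70 (SE, adjusted p = 0.0925). It had 4.37, 1.90 and 2.77 in scion flower buds, against -1.15, -1.16 and -2.92 in rootstock flower buds, and 1.69, 2.6 and 0.039 in scion leaves, against -1.33, -0.039 and -3.43 in rootstock leaves. The groups did not overlap in either organ, and replicate 3 was the lowest of its group in rootstock flower buds and in leaves of both parts.

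ABR (at3g02480), a LEA-type protein gene of the ABA response, differed by 3.67 ± 0.60 (SE, adjusted p = 0.0641). Its values were 4.84, 2.41 and 3.39 in scion flower buds, against -0.64, -0.46 and -0.94 in rootstock flower buds, and 1.93, 4.06 and 0.30 in scion leaves, against -0.30, -1.03 and -1.74 in rootstock leaves. MGL (at1g64660), methionine gamma-lyase, which degrades methionine, differed by 1.68 ± 0.27 (SE, adjusted p = 0.0641), with 2.35 in flower buds and 1.02 in leaves. Other members, chosen as examples after their values were seen, had differences mainly in flower buds. RAB18 differed by 4.32 in flower buds and 0.67 in leaves, M10 by 2.00 and 0.13, and the NAC factor RD26 by 2.02 and -0.24. The cold-regulated genes COR15A, COR15B and COR47 were near the level of the rootstock, at 0.38, -0.095 and 0.50.

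**Figure D4:**
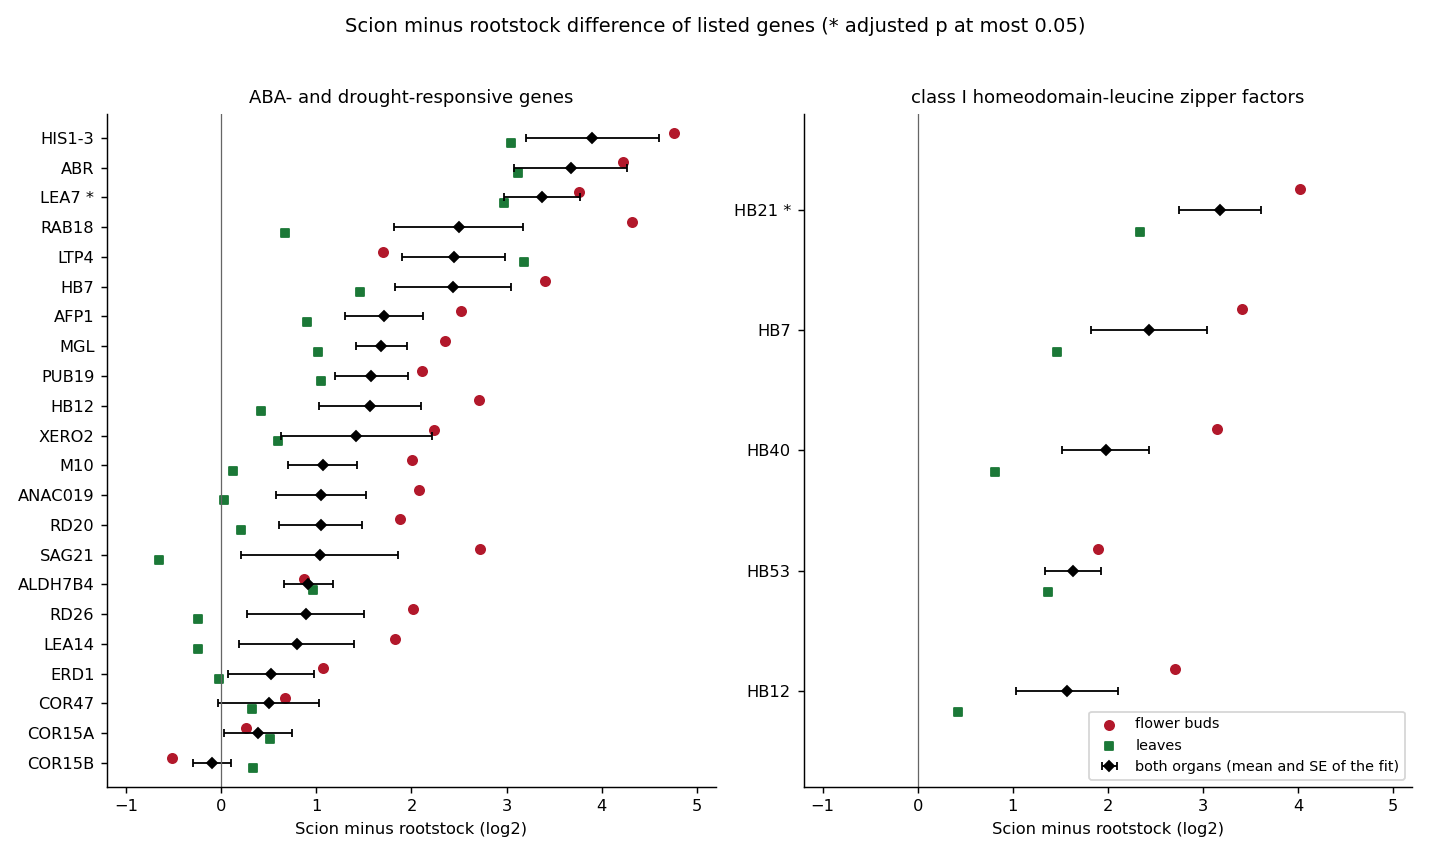
Scion minus rootstock difference (log2, x axis) of 22 ABA- and drought-responsive genes (left) and 5 class I HD-Zip genes (right), in flower buds (circles), in leaves (squares) and over both organs (diamonds with SE of the fit). LEA7 and HB21 are marked as past the test (asterisk), and the leaf value lies below the flower bud value for most genes.

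The differences in the ABA pathway itself were smaller. Of 12 genes of ABA synthesis, breakdown and signalling, all named through the tables of the study, 11 were higher, none was called, and the median was 0.79, with 1.22 in flower buds and 0.24 in leaves. The kinase gene OST1 (at4g33950, SnRK2.6) was separated in both organs, with 0.79 ± 0.16 (SE, adjusted p = 0.122), 1.18 in flower buds and 0.40 in leaves. The phosphatase genes HAI2 and ABI2 differed by 2.19 (adjusted p = 0.201) and 1.24 (adjusted p = 0.276), with 3.52 and 2.3 in flower buds against 0.86 and 0.17 in leaves. Opposite to these, the ABA receptor gene PYL4 (at2g38310) was lower by 1.03 ± 0.18 (SE, adjusted p = 0.0930) and separated in both organs. It had -1.28, -0.55 and -0.70 in scion flower buds, against 0.00068, -0.00068 and 0.36 in rootstock flower buds, and -0.49, 0.20 and -0.32 in scion leaves, against 1.11, 0.39 and 1.17 in rootstock leaves.

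Genes of amino acid breakdown and sugar starvation formed a further group without a call. Of 9 measured members 7 were higher, with a median of 0.65, and 3 were separated in both organs as higher, against 0.835% of all probe sets. Of the 9, 4 are named through tables of the study and were chosen by it on these samples, bZIP1 among them. Of the 5 named by the platform annotation, 4 were higher and 2 were separated. LKR/SDH (at4g33150), the bifunctional enzyme that starts lysine breakdown, missed the threshold narrowly, with 2.34 ± 0.36 (SE, adjusted p = 0.0541). Its values were 1.92, 0.48 and 0.97 in scion flower buds, against -0.94, -0.75 and -0.48 in rootstock flower buds, and 1.31, 2.28 and 0.60 in scion leaves, against -1.41, -0.75 and -2.16 in rootstock leaves. IVD, which degrades leucine, differed by 0.85 (adjusted p = 0.298) and the transcription factor gene bZIP1 (at5g49450), which is induced by low energy, by 1.35 (adjusted p = 0.197). PRODH1, for proline breakdown, was the exception among the larger values, with -0.89 (adjusted p = 0.428).

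Several smaller lists had single members with large differences in both organs. Among type 1 lipid transfer proteins LTP4 (at5g59310) differed by 2.44 ± 0.54 (SE, adjusted p = 0.171) and LTP2 (at2g38530) by 2.03 ± 0.55 (SE, adjusted p = 0.243), and both were separated, whereas LTP8 was at -0.0019. In the list on detoxification, UGT74E2 (at1g05680), which glycosylates the auxin precursor indole-3-butyric acid, differed by 2.25 ± 0.40 (SE, adjusted p = 0.0842), and at1g09500, a cinnamyl alcohol dehydrogenase-like gene, by 3.14 ± 0.71 (SE, adjusted p = 0.178). This last gene had 3.57, -0.50 and -0.45 in scion flower buds, against -2.18, -2.26 and -2.11 in rootstock flower buds, so scion flower bud replicate 1 stood far above the other flower buds. Among auxin genes 5 of 11 were higher with a median of -0.036, while WES1 (at4g27260, GH3.5), which conjugates auxin and salicylic acid to amino acids, differed by 1.47 ± 0.24 (SE, adjusted p = 0.0641). WES1 had 2.06, 1.21 and 2.02 in scion flower buds, against 0.38, 0.38 and 0.17 in rootstock flower buds, and -0.84, -0.17 and -1.01 in scion leaves, against -1.97, -1.58 and -2.91 in rootstock leaves. In the rootstock WES1 and LTP4 were more abundant in flower buds than in leaves, by 2.46 and 2.72. The rootstock means of LTP2 were 0.10 in flower buds and -2.85 in leaves. For WES1, LTP4 and LTP2 the part of floral transcripts in the leaf difference was not tested.

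Clock genes were all higher, 6 of 6, with a median of 1.17, but mainly in leaves (1.94, against 0.24 in flower buds). Of the 6, 3 are named through the tables of the study, PRR3 and JMJD5 among them. PRR3 and JMJD5 were separated in both organs and differed by 1.28 (adjusted p = 0.205) and 1.65 (adjusted p = 0.268). In the rootstock both were more abundant in flower buds than in leaves, and in scion leaves JMJD5 had -1.30, -2.97 and -0.18, in the same order over replicates as the floral organ identity median. The part of floral transcripts in their leaf differences was not tested. The sulfur-status gene ATSDI1 (at5g48850) was separated, with 1.2 ± 0.24 (SE, adjusted p = 0.127), while LSU2 at 1.4 (adjusted p = 0.260) overlapped in leaves.

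Lists on defence and ethylene had medians below 0 over both organs and no call. LLP1 (at5g03350), a lectin-like protein gene induced by salicylic acid, had the lowest difference of all probe sets, -2.49 ± 0.40 (SE, adjusted p = 0.0641). It had -1.03, -0.14 and -0.54 in scion flower buds, against 1.68, 1.81 and 1.65 in rootstock flower buds, and -0.52, -1.46 and -1.96 in scion leaves, against 2.82, 1.18 and 0.14 in rootstock leaves. Of 11 genes of salicylic acid and systemic acquired resistance 8 were lower, with a median of -0.37 (-0.12 in flower buds and -1.46 in leaves). Of the 11, 6 are named through the tables of the study. PNP-A and PR5 differed by -2.14 (adjusted p = 0.406) and -1.95 (adjusted p = 0.466), whereas the salicylic acid glucosyltransferase gene UGT74F2 was at 1.76 (adjusted p = 0.243). The list median was 2.12, 2.21 and -0.14 in scion leaves, against 3.62, 3.37 and 0.63 in rootstock leaves, with replicate 3 the lowest in both.

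The ethylene response factor gene ERF6 (at4g17490) was lower by 1.76 ± 0.28 (SE, adjusted p = 0.0641). Its values were -2.12, -1.85 and -1.42 in scion flower buds, against 0.63, 0.56 and 0.26 in rootstock flower buds, and -0.11, -1.41 and -0.35 in scion leaves, against 1.13, 0.11 and 0.60 in rootstock leaves. In the list on ethylene synthesis, perception and response factors 10 of 15 were lower, with a median of -0.79 over both organs, 0.073 in flower buds and -0.57 in leaves, and 13 of the 15 are named through the tables of the study. The response factors ERF2, ERF1A and ERF5 differed by -1.36, -1.05 and -0.79 and the synthase gene ACS6 by -0.90, whereas the ACC oxidase gene ACO3 was at 1.89, with 4.03 in flower buds and -0.25 in leaves. Genes of the rapid wound and touch response were lower in 7 of 8 cases (median -0.71, with -0.94 in flower buds and -0.56 in leaves). Those of jasmonate synthesis and response were lower in 9 of 10 (median -0.60), mainly in leaves, with -0.14 in flower buds and -1.16 in leaves. The tables of the study named 6 of the 8 wound and touch genes and 6 of the 10 jasmonate genes. No gene of either list passed the test.

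**Figure D5:**
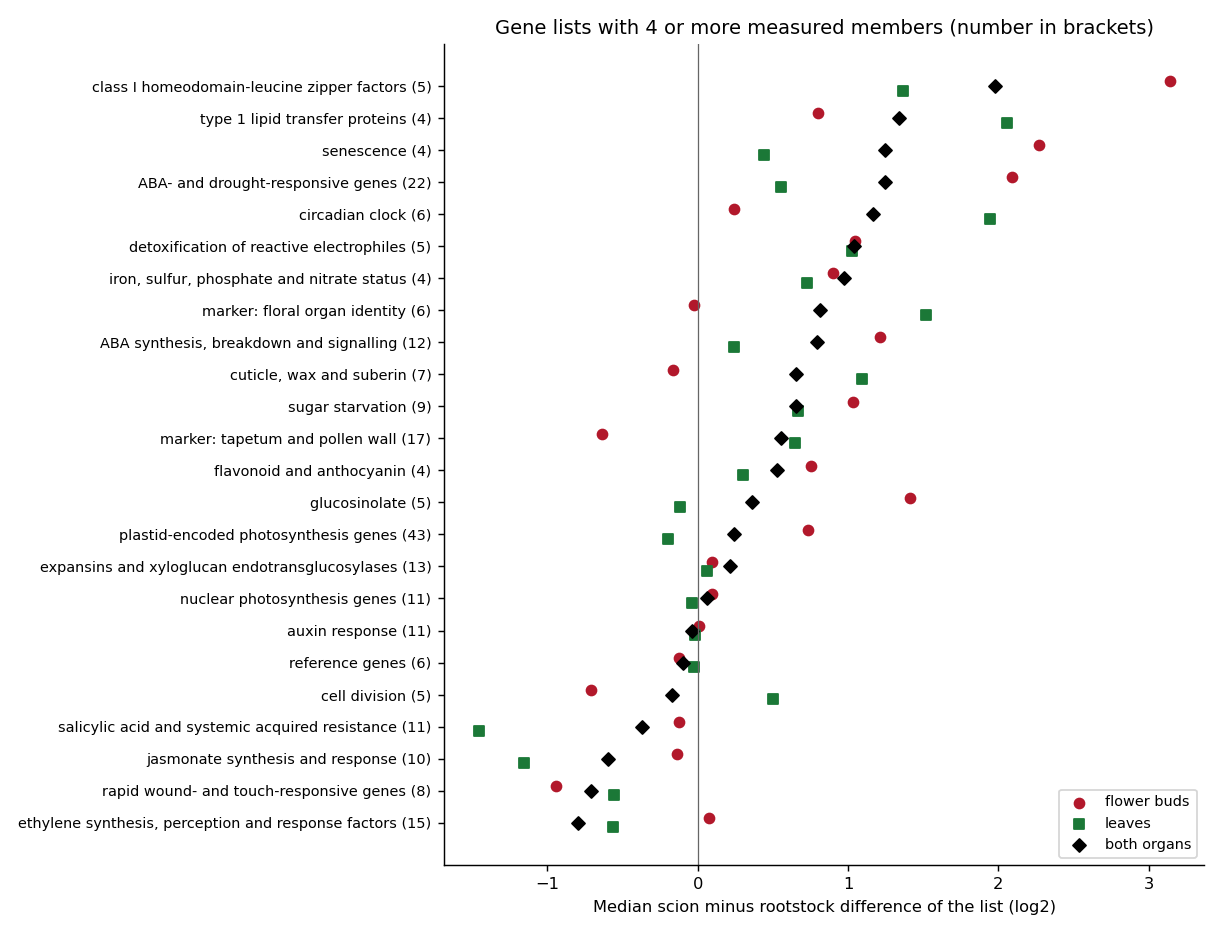
Median scion minus rootstock difference (log2, x axis) of each gene list with 4 or more measured members, in flower buds (circles), leaves (squares) and both organs (diamonds), with the number of members in brackets. Class I HD-Zip genes lie highest at 1.98 and ethylene genes lowest at -0.79, while the floral identity and tapetum markers are above 0 in leaves and below 0 in flower buds. Many members are named through the tables of the study, whose genes were chosen on these samples, among them all 5 class I HD-Zip genes.

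Other gene groups had little in common between the organs. For 11 nuclear photosynthesis genes the median was 0.062, with 6 higher and 5 lower. For 43 plastid-encoded photosynthesis genes it was 0.24, made up of 0.73 in flower buds and -0.20 in leaves. Their flower bud array medians were -0.66, -0.61 and -0.53 in scion, against -1.61, -1.72 and -0.57 in rootstock. Rootstock replicate 3 thus lay within the scion range. The 5 measured genes of cell division, of 34 listed, had a median of -0.71 in flower buds, 0.50 in leaves and -0.17 over both. None was called, and MCM7 was lower in scion leaves (-0.34). The leaf array medians of the 4 platform-named members overlapped, with -1.42, -2.60 and -0.63 in scion and -1.73, -2.79 and -1.28 in rootstock. Expansin and xyloglucan endotransglucosylase genes, 8 of 13 higher, had a median of 0.22 and no call. XTH3 was at 1.74 (adjusted p = 0.477), with 3.48 in flower buds, and XTH15 at 1.19 (adjusted p = 0.723), with 2.83 in leaves. The expansin-like gene EXLA1 (at3g45970) was at 1.43 ± 0.35 (SE, adjusted p = 0.201), with 1.03 in flower buds and 1.83 in leaves.

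The difference of the scion effect between the organs passed for 0 probe sets (limma, adjusted p of at most 0.05), against 1760 with an unadjusted p of at most 0.05, and its smallest adjusted p was 0.0812. It ran from 0 to 34 probe sets over the fits without 1 array, and the 8 called genes were not among them. Beside the shared calls, 4 of the 8 had an adjusted p of at most 0.05 in flower buds by themselves and 0 in leaves. Of the genes named above, MGL (limma, adjusted p = 0.377) and HB40 (limma, adjusted p = 0.327) had larger differences in flower buds than in leaves, without passing the test. For the called genes ALC, CHAT, ZW9 and at5g55450 the adjusted p of the difference between the organs was 0.931, 0.951, 0.95 and 0.973 (limma), with organ differences (flower bud minus leaf) of -0.22, -0.24, 0.25 and -0.15 on the log2 scale. HB21, LEA7, FMO GS-OX2 and at2g47780 had larger ones of 1.68, 0.79, 0.68 and 0.35 (limma, adjusted p = 0.634, 0.889, 0.802 and 0.899). The fit of the shared effect puts any difference between the organs into its residual. Called genes were thereby selected for similar effects in both organs. Neither these values nor the absence of the 8 from the probe sets that passed is separate support.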

How the data were processed

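The 12 arrays were ATH1 GeneChips, 1 per sample. The authors normalized the intensities with RMA in GeneSpring, and the deposited log2 values have the median of each probe set over all arrays at 0. Of 22810 probe sets, 64 controls were left out. A single gene was given to 13436 by locus and 77 by symbol from the platform annotation, and to a further 457 by the tables of the study, whose genes were chosen on these samples, and 8273 stayed unnamed. The shared effect was fitted with limma 3.58.1 in R 4.3.3 on organ and plant part, with p-values adjusted by Benjamini-Hochberg over all 22746, called where the fold was at least 2 and the adjusted p no higher than 0.05, the thresholds in the methods of the study. These use a one-way analysis, which does not separate organ from plant part and so gives no test of the shared effect. Values per organ and their difference came from 4 group means. The script was tested on simulated data.

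Named genes were the called probe sets, the smallest p where fewer than 5 were called in a direction, and the list members with the smallest adjusted p (up to 3 called and 2 others). Other list members were named as examples after their values were seen. Members and gene lists were chosen with earlier results of these data known. No sequences and no genome coordinates were used here. Alternatives were other models, blocks, weights, priors, centring, filters and arrays left out.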

Additional observations from a re-analysis of the deposited data

How the results depend on the processing

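Against 7 increases and 1 decrease, calls higher and lower numbered 20 and 8 with 4 group means, 173 and 43 with array weights, 11 and 3 without the probe sets of lowest SD, 0 and 0 with ordinary least squares (1 at the adjusted p alone, 2217 unadjusted) and 0 and 0 at an adjusted p of at most 0.01. They were 20 and 1 without scion flower bud replicate 1 and scion leaf replicates 1 and 3, 5 and 3 without replicate 3 of both leaf groups, 56 and 38 in flower buds alone, and 0 and 0 in leaves alone (859 unadjusted). Without the fold threshold they were 8 and 6. Leaving out 1 array gave 0 to 17 and 0 to 1. The difference between the organs passed for 3915 probe sets with array weights and for 0 to 34 without 1 array. The causes were not tested, and the search for promoter motifs was not run.

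The replicate numbers were not taken as a pairing, and the main fit treats the arrays as independent. Each scion was grafted onto its own plant, but neither labels nor methods say whether equal numbers mean the same plant. After removal of group means, same-numbered scion and rootstock arrays were correlated at 0.0234, 0.0741 and 0.201 in flower buds and 0.342, 0.714 and 0.816 in leaves. Different numbers ran from -0.155 to 0.0798 in flower buds and from -0.788 to 0.396 in leaves. Leaf replicate 3 of scion and of rootstock stood together on the second principal component, at -70.1 and -70.6. Not every array correlated best with its own number: rootstock leaf replicate 1 was closest to scion leaf replicate 2. With the replicate block over all arrays 14 were called higher and 2 lower, and with the replicate block within organ 23 and 6, LLP1, ERF6, LKR/SDH, WES1 and ABR (adjusted p 0.0052 to 0.0397) among them, and 111 probe sets passed for the difference between organs.

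Of the values of named genes under all alternatives, 1309 kept their direction and side of the threshold, 121 fell short of a threshold passed before, 70 newly passed it and 6 changed sign. Only the 8 called among the 58 named probe sets could fall short. Most values that kept their side belong to probe sets not called in the main fit, so these counts do not tell how stable the calls were. The 8 were called in 0 (CHAT, FMO GS-OX2) to 5 (ALC) of the 12 fits without 1 array. In leaf arrays alone ndhE was -0.18, XTH3 -0.00026, HSFC1 -0.30 and CYCB1;3 0.21, HSP22 was 0.0039 without the 3 scion arrays, and MCM7 was 0.10 without scion leaf replicate 2, in a range of -0.67 to 0.10 over the fits without 1 array. No depth is recorded for arrays, whose number limits the precision.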

Other observations

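Of the 68 probe sets separated in both organs with a mean difference of at least 2-fold, several belong to no list above. They were chosen after their values were seen. The nitrate transporter gene NRT1.8, which retrieves nitrate from the xylem, was higher in scion by 1.57 (limma, adjusted p = 0.151) on the log2 scale, with 1.65 in flower buds and 1.48 in leaves. UPB1, a bHLH gene known for controlling peroxidases in the root, differed by 2.29 (adjusted p = 0.265), and its scion flower bud values were 2.66, -1.51 and -0.81, of which replicate 1 stood apart. The beta-glucosidase gene BGLU45 differed by 2.03 (adjusted p = 0.127). TAT7 and PDS1, which act in succession from tyrosine towards tocopherol, differed by 1.05 (adjusted p = 0.203) and 1.02 (adjusted p = 0.243). SKP2A, an F-box gene of the cell cycle, differed by 1.25 (adjusted p = 0.100), with 1.3 in flower buds and 1.2 in leaves.

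On the lower side the chloroplast copper/zinc superoxide dismutase gene CSD2 differed by -1.55 (adjusted p = 0.100). It had -0.19, -0.11 and 0.17 in scion flower buds, against 2.38, 2.35 and 1.49 in rootstock flower buds, and -0.85, -0.97 and -0.24 in scion leaves, against 0.97, -0.21 and 0.11 in rootstock leaves. The glucanase gene BG3 differed by -1.43 (adjusted p = 0.288), with -2.76 in leaves and -0.10 in flower buds.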
